A study of Mus musculus with 384 samples.

Results

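Transcripts of 10 genes of the tight junction were followed across 3 populations of mouse mammary epithelial cells: the claudins Cldn1, Cldn3, Cldn4, Cldn7, Cldn8 and Cldn10, the membrane proteins Ocln and F11r, and the scaffold proteins Tjp1 and Tjp3. The genes were chosen by name from the 49585 genes of the count table, and all 10 had reads in every gate. Single cells were sorted by flow cytometry into a plate of 384 wells, and their poly(A) RNA was read along its full length with Smart-seq2. The embryonic cells came from Lgr5-EGFP-IRES-CreER embryos at embryonic day 14, from female whole skin that included the mammary buds, and were sorted for high CD49f and high Lgr5. Lgr5 is a Wnt pathway receptor, and its reporter defines this gate, so embryonic mammary cells without the reporter were not sampled. The adult cells came from mammary glands of Rosa-tdTomato mice and were sorted as CD24+CD29Hi (basal) or CD24+CD29Lo (luminal). Dead cells and cells with CD45, CD31 or CD140a on their surface were gated out. The age of the adult mice is not given in the labels.

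Tight junctions close the space between neighbouring epithelial cells near their apical side. Claudins are membrane-spanning proteins whose extracellular loops meet those of the next cell: some, such as claudin-1 and claudin-3, mainly seal the space, and others, such as claudin-10, form ion-selective pores. Occludin and the junctional adhesion molecule JAM-A (F11r) sit in the same strands or beside them, and the ZO proteins (Tjp1 is ZO-1, Tjp3 is ZO-3) tie them to the actin cytoskeleton. In the mammary gland, luminal cells line the duct and carry the tight junctions that hold milk in the lumen, and basal cells form the contractile outer layer.

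Of 376 wells with 1 cell, 347 had at least 50000 reads on genes and were kept. Embryonic cells made up 36.6% of them, basal cells 31.1% and luminal cells 32.3%, after 10 embryonic, 10 basal and 9 luminal wells had been left out. Median reads per kept cell were 697578 in the embryonic, 450196.5 in the basal and 525176 in the luminal gate. Each gate also had 1 well of 50 cells, with 532820 to 621792 reads, and the 4 wells without a cell had 34 to 563 reads. Animals and litters are not named in the labels. Each gate is therefore 1 sample, no test was made between gates, and intervals are 95% intervals of counting error only. Smart-seq2 reads carry no molecular identifiers, so they are not independent molecules, and the true error is larger. As a check of the labels, the summed markers of each population were highest in its own gate. The 7 luminal markers stood at 22830 CPM (counts per 1000000 gene reads) in the luminal, 2518 in the basal and 657 in the embryonic sums. In the same order the 7 basal markers had 167.5, 15490 and 1574 CPM, and the 6 markers of the embryonic bud 73.5, 290 and 2468, with Wnt10b at 0 in luminal cells. Each cell was matched by rank correlation to the 3 wells of 50 cells: all but 1 embryonic cell, 98 basal cells and all but 3 luminal cells were closest to the well of their own gate. The other 10 basal cells were closest to the luminal well (8 cells) or the embryonic well (2 cells), and leaving the 10 genes out of the correlation changed no match. In the embryonic gate 22 cells had at least 3 of 8 fibroblast markers, and in the basal gate 7 cells had at least 3 of 6 endothelial markers. Results that rest on these cells are given with and without them. By the same rule 6 basal cells and no luminal cell had at least 3 fibroblast markers. No alternative left out these 6 basal cells on that ground. The gates were sorted into different blocks of plate rows, so position on the plate and gate can be told apart only in the few rows that hold both.

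Cldn3 and Cldn4 are neighbours on chromosome 5 of GRCm38, with 39.3 kb between them. Cldn4 lies at chr5:134945119-134946934 on the minus strand and Cldn3 at chr5:134986214-134987472 on the plus strand, and each is annotated with 1 exon. The 40 bases shared by exons of Cldn3 and the antisense gene Wbscr25, and 40 bases shared by Tjp3 and Apba3, cannot be assigned where counting ignores strand. RefSeq promoter windows (GRCm38.p6, 250 bases before to 50 bases after a transcript start) were found for 9 of the 10 genes, all but Cldn8. The E-box CAGGTG, which reads CACCTG on the other strand and is bound by repressors of epithelial genes such as Snail and Zeb factors, was found in windows of 6 of the 9 genes: Cldn3, Cldn4, Cldn7, F11r, Ocln and Tjp3. Of all 32851 promoter windows, 20.2% held it on either strand, and of the 13 windows of the junction genes 8 did. The stretches below are the 120 bases before the annotated start, printed 5′ to 3′ on the strand of the gene. They show the neighbours Cldn4 and Cldn3, whose levels were both far highest in luminal cells, and Tjp3, with the E-box in capitals.
Cldn4, chr5:134946935-134947054, minus strand: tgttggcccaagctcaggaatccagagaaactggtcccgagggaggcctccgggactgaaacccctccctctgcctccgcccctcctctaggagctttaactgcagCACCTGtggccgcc
Cldn3, chr5:134986094-134986213, plus strand: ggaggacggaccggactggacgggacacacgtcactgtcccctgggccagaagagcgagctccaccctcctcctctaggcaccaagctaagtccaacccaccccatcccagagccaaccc
Tjp3, chr10:81291582-81291701, minus strand: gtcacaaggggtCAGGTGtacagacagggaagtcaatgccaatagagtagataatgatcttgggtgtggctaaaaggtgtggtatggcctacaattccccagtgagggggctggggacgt
The match in Cldn4 begins at position -14 from the start, and a second lies at position 12, past the start. The window of Cldn3 held its match at position 32, outside the stretch shown, and the window of Tjp3 shown has its match at position -108. A second Tjp3 window, for another start, held a match at -17. Of the other motifs searched on both strands, the grainyhead-like site AACCGGTT was in 0 of 9 genes (0.146% of all windows), AGATAA in 2 (11.2%) and the GC box CCGCCC in 8 (35.7%). No motif of the 4 contains another. A match is a string of letters and says nothing of binding.

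All 10 genes had their highest summed level in the luminal gate. Cldn4, a claudin of many secretory epithelia, was the most abundant of the 10 per kb of exon in the summed cells of each gate, at 1291 CPM per kb in luminal, 273 in basal and 127.6 in embryonic cells. In luminal cells Cldn3 followed at 520.5 CPM per kb, then Cldn7 at 228 and F11r at 125.2. In embryonic cells Cldn7 came next at 72.4 CPM per kb, then F11r at 37.5, whereas Cldn3 stood at 9.97. Among basal cells F11r followed Cldn4, at 86.65 CPM per kb. The wells of 50 cells gave another order outside the luminal gate: Cldn10 led in the basal well, at 83.35 CPM per kb against 29.3 for Cldn4, and Cldn7 (32.2) and F11r (30.2) lay above Cldn4 (22.1) in the embryonic well. Tjp1, with its long transcript, was lowest of the 10 per kb in luminal cells, at 13.03.

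**Figure D1:**
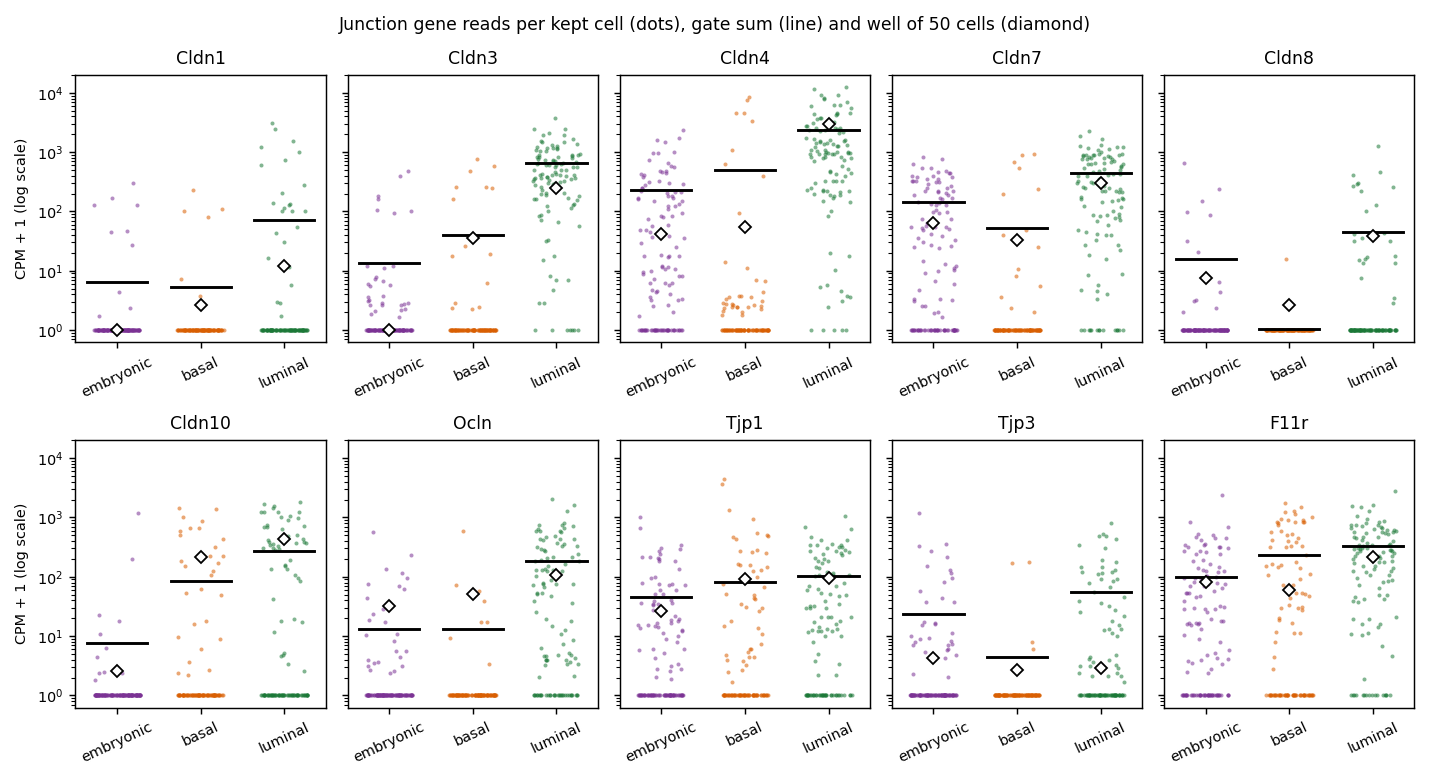
Level of each gene in each kept cell (dots, CPM + 1 on a log scale), in the summed reads of the gate (line) and in the well of 50 cells (diamond), for the embryonic, basal and luminal gates. Luminal cells of Cldn3, Cldn4, Cldn7 and F11r form a dense band above 100 CPM, whereas the Cldn4 line of the basal gate (495 CPM) is carried by few dots above a row of cells at or near 0.

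Cldn4 had 232 CPM in the summed embryonic reads (229 to 235), 495 in the basal (489 to 501) and 2345 in the luminal (2334 to 2356). Per cell, the lowest, median and highest values were 0, 9.86 and 2327 CPM in the embryonic gate, 0, 0 and 8562 in the basal and 0, 968 and 12680 in the luminal. The ranges of the 3 gates overlap, and only the basal median was 0. After every cell was thinned to 50000 reads, at least 5 reads of Cldn4, which is 100 CPM, were seen in 45 embryonic (35.4%), 8 basal (7.41%) and 96 luminal cells (85.7%). The basal gate thus had fewer cells with Cldn4 than the embryonic gate and a higher sum, and 2 basal cells held at least 50% of its basal reads.

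Cldn3, a sealing claudin, had 12.55 CPM in embryonic, 39.9 in basal and 655 in luminal sums. Its per-cell median was 0 in embryonic and basal cells and 401 CPM in luminal cells, with highest cells at 476, 777 and 3820 CPM. At 5 thinned reads it was seen in 6 embryonic, 7 basal and 90 luminal cells. The luminal sum of Cldn3 was 52.2-fold above the embryonic (49.2 to 55.4), the largest such fold of the 10 genes, and 16.4-fold above the basal (15.7 to 17.2).

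Cldn7, a claudin that also lies along the lateral membrane, was the claudin of the 10 with the smallest gap between embryonic and luminal cells apart from Cldn8. It had 141 CPM in embryonic, 52.5 in basal and 443 in luminal sums, and per-cell medians of 13.7, 0 and 229 CPM. The highest embryonic cell had 825 CPM, the highest basal cell 913 and the highest luminal cell 2285. Embryonic cells with at least 5 thinned reads numbered 41 (32.3%), against 6 basal (5.56%) and 73 luminal cells (65.2%). Luminal Cldn7 was 3.14-fold above embryonic (3.08 to 3.21) and 8.45-fold above basal (8.13 to 8.78).

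Cldn1, Cldn8 and Cldn10 had a median of 0 CPM per cell in all 3 gates, so their sums come from a minority of cells. Cldn1, the sealing claudin of the epidermal barrier, had 5.39 CPM in embryonic, 4.42 in basal and 71.6 in luminal sums, and 3 luminal cells held at least 50% of its luminal reads. Cldn8 had 14.7, 0.055 and 44.8 CPM, and its 3 basal reads all came from 1 cell. Cldn10, a pore-forming claudin, had 6.66 CPM in embryonic, 83.5 in basal and 271 in luminal sums, and 1 embryonic cell at 1185 CPM held 78.5% of its embryonic reads. At 5 thinned reads Cldn10 was seen in 2 embryonic, 15 basal and 36 luminal cells. The wells of 50 cells gave Cldn10 1.61, 216 and 424 CPM in the same order.

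Occludin was low outside the luminal gate, with 12.4 CPM in embryonic (11.7 to 13.2), 12.3 in basal (11.4 to 13.2) and 182.5 in luminal sums (179 to 186). The embryonic and basal levels of Ocln did not differ beyond counting error (ratio 1.01, 0.918 to 1.11), and 1 basal cell held 77.4% of the basal reads. The wells of 50 cells had 30.6 CPM in the embryonic and 49.8 in the basal well, and the luminal well had 57 of its 532820 reads on Ocln. F11r, the adhesion molecule JAM-A, was present in all gates, with 99.8 CPM in embryonic, 231 in basal and 333.5 in luminal sums and per-cell medians of 15.4, 10.1 and 204 CPM. It was seen at 5 thinned reads in 37 embryonic (29.1%), 35 basal (32.4%) and 73 luminal cells (65.2%).

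Of the 10 genes, ZO-1 (Tjp1) had the smallest fold between its highest and lowest gate. It had 44.4 CPM in embryonic, 79.6 in basal and 101.8 in luminal sums. Its lowest, median and highest cells were at 0, 0 and 1003 CPM in the embryonic gate, 0, 0 and 4471 in the basal and 0, 16.5 and 1049 in the luminal. The basal and luminal wells of 50 cells were level for Tjp1, at 91.4 CPM (68.8 to 118.9) and 93.8 CPM (69.65 to 123.7). ZO-3 (Tjp3), the ZO protein restricted to epithelia, had 22.9 CPM in embryonic, 3.52 in basal and 55.3 in luminal sums. The wells of 50 cells did not repeat the high luminal value of Tjp3, with 2 reads in the embryonic, 1 in the basal and 1 in the luminal well, all under the 3 reads that a count of 0 allows.

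Between gates, log2 ratios of summed CPM were taken with 1 CPM added to each side. A gene with at least 5 CPM in either gate was counted as different at 2-fold. Shares of all measured genes are those of the summed kept cells, and were not taken again for shared plate rows or other settings. Embryonic against luminal cells, all 10 genes were at least 2-fold lower and 0 were higher, where 17.6% of 12679 measured genes were lower and 39.3% were higher. The median log2 ratio of the 10 was -2.53 and that of all measured genes 0.58. The ratios ran from -5.60 for Cldn3 and -5.15 for Cldn10 to -1.18 for Tjp1. With spike-in reads as the total, all genes shifted by 0.51 on the log2 scale. Tjp1 and Tjp3 (-1.23) lay closer than that to the 2-fold cut, so their 2-fold call depends on the scaling. The well of 50 embryonic cells against that of 50 luminal cells gave 9 of 10 lower, the exception being Tjp3 (0.55 on few reads). In the 2 plate rows with both gates (12 embryonic and 34 luminal cells), 6 were at least 2-fold lower and 0 higher, and all 10 ratios were below 0.

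Basal against luminal cells, 8 of the 10 genes were at least 2-fold lower and 0 higher, where 21.3% of 11885 measured genes were lower and 28.3% higher. The 2 under 2-fold were Tjp1 (log2 -0.35) and F11r (-0.53), which are found in junctions of many cell types. In the wells of 50 cells F11r was at -1.82, past 2-fold, and Tjp1 at -0.04. With spike-in reads as the total, all genes shifted by -0.83. That is more than the gap of either gene to the 2-fold cut, so this exception depends on the scaling. The median of the 10 was -3.35 against 0.14 for all measured genes. The largest ratio was that of Cldn8 (-5.44), an 814-fold difference with an interval of 278 to 3949 because it rests on 3 basal reads. In the 1 plate row with both gates (8 basal and 15 luminal cells) 8 were again at least 2-fold lower.

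Embryonic against basal cells, the genes went both ways: Cldn7, Cldn8 and Tjp3 were at least 2-fold higher, where 33.8% of 12808 measured genes were higher, and Cldn3, Cldn4, Cldn10 and F11r were at least 2-fold lower, where 19.4% were, although Cldn4 and F11r turn to 0.245 and 0.13 on the log2 scale with spike-in reads as the total. That total gave 5 higher and 1 lower. The largest differences were Cldn8, 267.5-fold higher (91.3 to 1299, on 3 basal reads), and Cldn10, 12.5-fold lower (11.5 to 13.7). The median log2 ratio of the 10 was -0.41 against 0.38 for all measured genes. Only 1 plate row held both gates, with 4 embryonic and 15 basal cells. In that row 1 gene was at least 2-fold higher and 5 were lower.

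**Figure D2:**
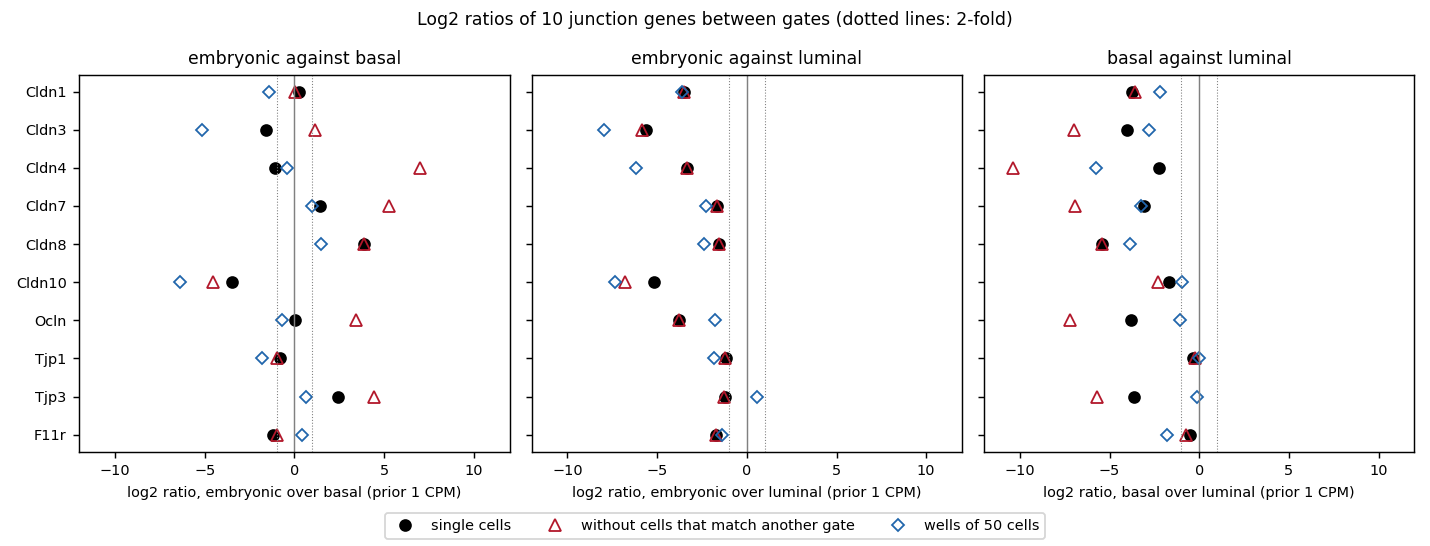
Log2 ratio of each gene for embryonic over basal, embryonic over luminal and basal over luminal cells, from summed single cells (filled circles), from the same without the cells closest to another gate's well of 50 cells (open triangles) and from the wells of 50 cells (open diamonds). Against luminal cells the circles lie left of 0 for all 10 genes. Embryonic against basal, the triangles of Cldn3 and Cldn4 lie right of 0 and their circles left, and with spike-in reads as the total Cldn4 and F11r also turn.

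The embryonic against basal result rested on the 8 basal cells that were closest to the luminal well. These 8 cells gave 11.6% of the reads of the basal gate and 99.9% of its Cldn4 reads, 98.4% of Ocln, 97.4% of Tjp3, 95.7% of Cldn7 and 90.9% of Cldn3. Every one of the 8 had Cldn4, at 394 CPM in the lowest, 3938 in the median and 8562 in the highest cell. Summed over the 8, Cldn4 stood at 4258 CPM, Cldn7 at 433, Cldn3 at 312 and Cldn10 at 316, beside 2345, 443, 655 and 271 CPM in the luminal gate. The same cells had Krt8 at 6318 CPM, Krt18 at 5102 and the prolactin receptor Prlr at 3788, and 3 of 8 had reads of the smooth muscle actin Acta2, which marks basal cells.

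In the 98 basal cells closest to the basal well, the claudins other than Cldn10 had few reads. Cldn4 fell to 37 reads in 26 cells, 0.799 CPM, and no cell reached 5 thinned reads (0 of 98, where 3 counts of the total, the limit that a count of 0 allows, is 3.06%). Cldn3 had 4.28 CPM, Cldn7 2.68, Ocln 0.238 and Tjp3 0.108. Cldn10 kept 55.2 CPM, with reads in 22 of the 98 cells and a highest cell at 1448 CPM. F11r (198 CPM, reads in 48 cells) and Tjp1 (86.2 CPM, reads in 38 cells) were the only 2 of the 10 above Cldn10 in these cells. Without the 7 cells with endothelial markers, 91 cells remained, in which Cldn10 at 58.9 CPM lay above Tjp1 at 54.2. The embryonic cells without fibroblast markers had a similar Tjp1 level, 51.2 CPM. Of the adhesion and scaffold genes of the list, single basal cells that match their label thus had JAM-A and ZO-1 reads with few reads of occludin, ZO-3 or most claudins. The basal well of 50 cells did not repeat this for occludin, with 49.8 CPM of Ocln (33.6 to 71.1). Nor did it for Cldn4, Cldn3 and Cldn7, at 53.2, 34.9 and 31.6 CPM, whereas Cldn1, Cldn8 and Tjp3 had 1 read each in it.

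Without all cells closest to another gate's well, 6 of the 10 genes were at least 2-fold higher in embryonic than in basal cells and 1 was lower. With all kept cells, 33.8% of all measured genes were higher and 19.4% lower, and these shares were not taken again after this step. Cldn4 went from -1.09 to 7.02 and Cldn3 from -1.59 to 1.12 on the log2 scale. Cldn7 stood at 5.27, Tjp3 at 4.44 and Ocln at 3.44. Cldn10 stayed lower, at -4.53, and F11r (-0.98) and Tjp1 (-0.97) came just under 2-fold. This Tjp1 ratio still includes the 7 basal cells with endothelial markers and does not describe the basal cells without them. Basal against luminal, the same step left the count at 8 lower and 0 higher and took Cldn4 from -2.24 to -10.36. The step leaves out basal cells for their likeness to the luminal well, so a wider gap to luminal cells follows in part from the filter. The basal well of 50 cells also had luminal transcripts, with 2435 CPM summed over 7 luminal markers against 26790 in the luminal well, beside 53.2 CPM of Cldn4, 34.9 of Cldn3 and 31.6 of Cldn7. Their part in the values of that well was not tested.

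**Figure D3:**
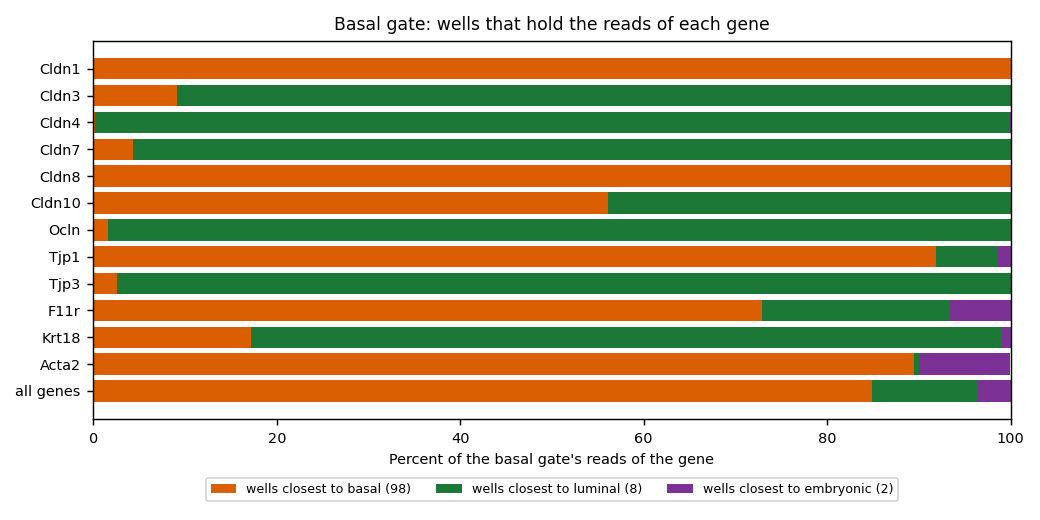
Share of the basal gate's reads of each gene that came from the 98 cells closest to the basal well of 50 cells, the 8 closest to the luminal well and the 2 closest to the embryonic well, with the keratin Krt18, Acta2 and all genes for scale. The 8 cells hold 11.6% of all reads and over 90% of those of Cldn3, Cldn4, Cldn7, Ocln and Tjp3.

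A second set of cells held a large share of basal Tjp1. The 7 basal cells with endothelial markers gave 5.37% of the basal reads and 37.7% of those of Tjp1, with a highest cell at 4471 CPM. The 91 cells that matched the basal well and lacked these markers held 54.1%. The 7 cells had 0 reads of Cldn1, Cldn3, Cldn7, Cldn8, Cldn10, Ocln and Tjp3, and 2 of Cldn4. All 6 endothelial markers had reads in the basal gate, 421 CPM summed, against 10.5 in the embryonic and 10.4 in the luminal gate. Cldn5, the claudin of blood vessels, is 1 of the 6 markers that chose these cells. They also held 98.9% of the basal reads of Esam, an endothelial adhesion molecule that is not among the 6. In the 91 cells F11r stood at 203 CPM.

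Within the luminal gate the junction genes split into 3 patterns. Cells were placed by the mean level of 10 hormone-sensing genes, such as Prlr and Esr1, minus that of 12 secretory genes, such as Csn3 and Elf5. No cell lay within 1 log2 unit of the cut, with 47 cells on the hormone-sensing and 65 on the secretory side. The sides are ranges of a score and not sorted types, and the hormone-sensing cells were deeper, with medians of 808345 and 482621 reads.

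On the hormone-sensing side Cldn10 had 525 CPM against 33.97 on the secretory side, 15.45-fold more (14.6 to 16.4). The lowest, median and highest cells were at 0, 370 and 1812 CPM on the first side and at 0, 0 and 1235 on the second. At 5 thinned reads Cldn10 was seen in 33 of 47 (70.2%) against 3 of 65 cells (4.62%). Cldn4 had 3938 against 853 CPM, 4.62-fold more (4.56 to 4.67). No hormone-sensing cell was below 187 CPM of Cldn4, whereas the secretory cells began at 0, with a median of 525. Cldn8 had 69.6 against 21.6 CPM, 3.23-fold more (2.97 to 3.51), and was seen at 5 thinned reads in 9 of 47 against 2 of 65 cells. Tjp1 had 135.8 against 69.95 CPM, 1.94-fold more (1.85 to 2.04), and was seen in 44.7% against 18.5% of cells.

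Cldn1 went the other way. The secretory side had 138.5 CPM and the hormone-sensing side 3 reads in 47 cells, 0.0908 CPM, a difference of 1526-fold with an interval of 522 to 7402. Of the 65 secretory cells 22 had reads of Cldn1, the highest at 3117 CPM, and 15 had at least 5 thinned reads (23.1%) against 0 of 47, where the same limit is 6.38%. The reads of Cldn1 in the luminal gate thus came nearly all, 99.9%, from secretory cells.

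The sums of Cldn3, Cldn7, Ocln, Tjp3 and F11r were close on both sides. Cldn3 had 591 CPM on the hormone-sensing and 715.5 on the secretory side, Cldn7 409 and 475, and Ocln 168 and 196. Tjp3 had 49.2 and 60.97 CPM and F11r 366.5 and 303. These 5 ratios lay between 1.16 and 1.24 in either direction. Per cell, Ocln and F11r were less alike than their sums: the median of Ocln was 65.6 CPM on the hormone-sensing and 13.6 on the secretory side, and that of F11r 269 and 105.4. F11r was seen at 5 thinned reads in 78.7% and 55.4% of cells. For Cldn7 the medians were 236 and 222 CPM, and for Cldn3 349 and 497.

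**Figure D4:**
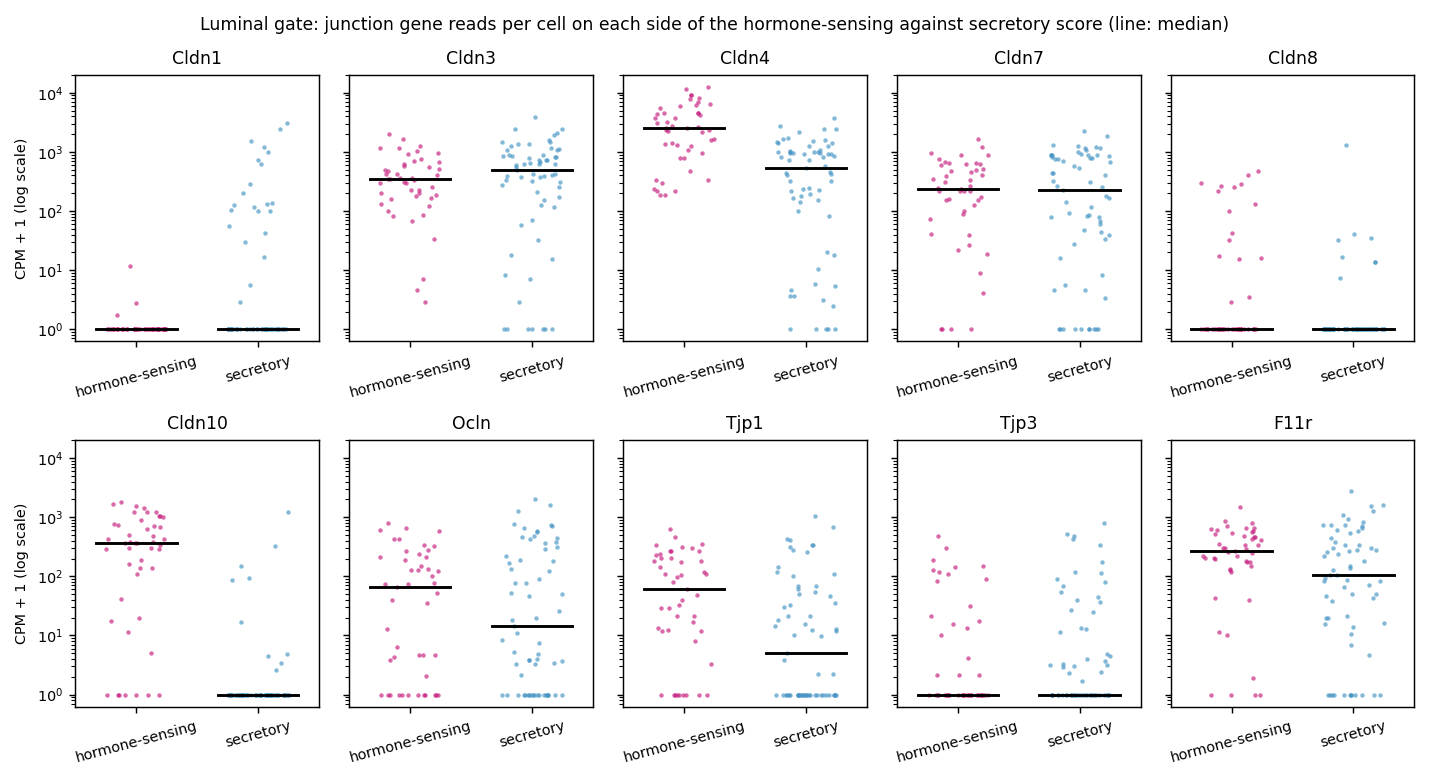
Level of each gene per luminal cell (CPM + 1, log scale) in the 47 cells on the hormone-sensing and the 65 on the secretory side of the score, with the median as a line. Cldn10 and Cldn4 are higher on the hormone-sensing side (medians 370 against 0 and 2516 against 525 CPM), Cldn1 appears almost only on the secretory side, and the ranges of Cldn3 and Cldn7 overlap on the 2 sides.

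Embryonic cells showed fewer of the 10 genes per cell than luminal cells did. At 5 thinned reads, 39 embryonic cells (30.7%) had none of the 10, 24 had at least 3, and the median cell had 1. Every luminal cell had at least 1, 94 had at least 3 and the median was 4. In the basal gate 49 had none (45.4%), all of them among the 98 that match the basal well, and 8 had at least 3, of which 7 were closest to the luminal well. Median genes of any kind per thinned cell were 3919, 2020 and 2589.5 in the embryonic, basal and luminal gates, so the embryonic cells had the most genes detected and fewer of these 10 than luminal cells.

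Among the 22 embryonic cells with fibroblast markers, whose median Col1a1 level was 1630 CPM, Cldn4 stood at 84.7 CPM, against 265.5 in the other embryonic cells. Cldn7 had 53.4 against 161 CPM, F11r 38.6 against 113.8 and Tjp1 14.7 against 51.2. Ocln went against them, with 26.8 against 9.08 CPM, and so did Tjp3, with 31.7 against 20.9. One cell at 572 CPM is the highest of the gate for Ocln and lies among the 22. Summed over the gate the 8 fibroblast markers had 3923 CPM in embryonic cells (0 to 93940 per cell), 2516 in basal (0 to 21730) and 75.8 in luminal (0 to 2997, with Lum at 0). Without the 22 cells, 9 of the 10 genes were lower by 2-fold or more, embryonic against luminal, in place of 10.

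Among luminal cells, the pair of the 10 genes with the highest rank correlation was Cldn4 with Cldn10: all 36 cells with at least 5 thinned reads of Cldn10 also had at least 5 of Cldn4, and the correlation was 0.49. In the embryonic gate Cldn4 was seen with Cldn7 in 23 cells, of 45 and 41 that had each, with a rank correlation of 0.41 across the embryonic cells. Cldn4 with F11r had 0.41 as well. The points are cells of 1 gate that differ in depth, so these values only describe the gate.

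Across all 347 cells, the genes with the pattern most like that of each junction gene were looked for among 7479 genes with a read in at least 20% of cells. For Cldn3 they were Aqp5, a water channel of secretory epithelia (rank correlation 0.74), the keratin Krt18 (0.72) and Prlr (0.71). For Cldn4 they were Krt18, Krt8 and Epcam, all at 0.70, and Cldn7 had Epcam (0.66), Krt8 (0.62) and Krt18 (0.58). Cldn10 was most like Cited1 (0.66), a transcriptional coregulator, Tmem56 (0.64) and Stc2 (0.64), and Ocln most like Rab11fip1, Clu and Krt18, at 0.57 to 0.58. For Tjp1 (Mir22hg, Cited1 and Tmprss2), Tjp3 (Epcam, Clu and Trps1) and F11r (Cystm1, Krt8 and Tnfrsf12a) the values were 0.33 to 0.41. Cldn1 and Cldn8 had too few cells with reads for this list. The cells of all gates were pooled for these values. Every like gene named here had its highest summed level in the luminal gate, as the junction genes did. The values therefore mix differences between gates with differences between cells of a gate. Whether these pairs of genes also go together within a gate was not tested.

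Beyond the 10, Cldn6 was the leading claudin of the embryonic gate. This claudin, known from embryonic epithelia, had 317 CPM in the embryonic, 4.42 in the basal and 44.3 in the luminal gate, and 304, 0 and 11.3 CPM in the wells of 50 cells. The 98 cells closest to the basal well had 2 reads of it (0.0432 CPM). Per cell it had 0, 150 and 1741 CPM as lowest, median and highest embryonic values, above the median of 9.86 for Cldn4. In the luminal gate Cldn6 had 84.3 CPM on the hormone-sensing and 6.86 on the secretory side. Cldn5 had 140 CPM in the basal gate, all from the 7 cells that were chosen with it among their markers. Of 22 claudins looked at, 15 reached 1 CPM per kb in some gate and 6 had no read in any kept cell.

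**Figure D5:**
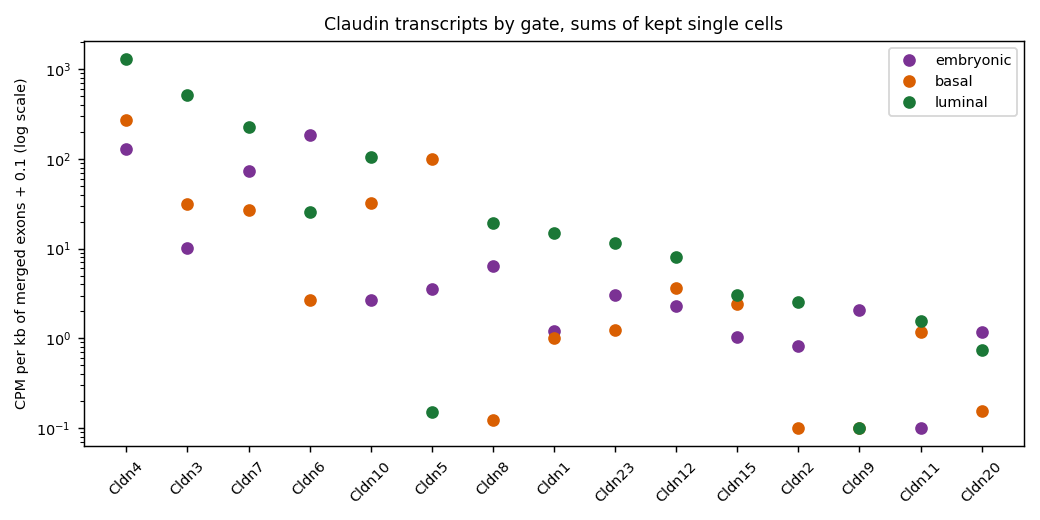
Level of the 15 claudins that reached 1 CPM per kb of exon in some gate, from summed single cells (CPM per kb + 0.1, log scale), by gate. Luminal cells have the top value for Cldn4, Cldn3, Cldn7 and Cldn10, embryonic cells for Cldn6 and basal cells for Cldn5.

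Of 62 other junction genes, 48 were measured embryonic against luminal, with 27 at least 2-fold lower and 13 higher (18 and 15 with spike-in reads as the total), where 17.6% of all measured genes were lower and 39.3% higher. Basal against luminal, 21 of 46 were lower and 9 higher (35 and 7 by spike-ins), beside 21.3% and 28.3% of all genes. Embryonic against basal, 11 of 48 were lower and 17 higher, but 14 and 10 under edgeR's TMM scaling and 5 and 31 by spike-ins. The first 2 counts are near the shares over all genes (19.4% and 33.8%) and show nothing particular to junction genes. Tricellulin (Marveld2), of the corners where several cells meet, had 51.9 CPM in the embryonic, 21.6 in the basal and 113.3 in the luminal gate, and 8 reads (0.173 CPM) in the 98 cells closest to the basal well. The tricellular protein Lsr had 59.3, 29.9 and 87.9 CPM, the coxsackievirus receptor Cxadr 193, 214 and 269, and Ildr1 0.623, 44.9 and 71.9. Of the other junctional adhesion molecules, Jam3 had 22.1, 9.46 and 0 CPM (12.97 in embryonic cells without fibroblast markers), and Jam2 0.478, 81.9 and 6.99, with 67.7% of its basal reads in the cells with endothelial markers.

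In the cytoplasmic plaque, embryonic against luminal, 6 of 10 measured genes were lower by 2-fold or more and 2 higher (17.6% and 39.3% of all genes). Paracingulin (Cgnl1) had 2.98, 16.5 and 156 CPM in the embryonic, basal and luminal gates. Of the 3 angiomotins, Amotl1 (383, 461.5 and 162 CPM) and Amot (27.3, 11.3 and 3.13) were lowest in luminal cells, and Amotl2 (66.5, 102.6 and 134.7) was highest there. In the 98 cells closest to the basal well, Amot had 5 reads (0.108 CPM). Of the 9 polarity genes 6 were lower and 2 higher in embryonic than in luminal cells, against the same shares of all genes: the apical protein Crb3 had 17.45, 0.88 (0.0432 in the 98 cells) and 47.4 CPM and Pard6b 8.63, 0.0367 and 28.15, whereas Pard3 had 314, 161 and 116.3. The counts of lower plaque and polarity genes depend on the scaling. Several genes, such as Amotl2 (log2 -1.01), Mpp5 (-1.30) and Crb3 (-1.39), lay closer to the 2-fold cut than the spike-in shift of 0.51. Epcam, a surface protein that binds claudin-7, had 689, 550 and 2280 CPM. The 8 basal cells closest to the luminal well gave 57.1% of its basal reads, and the 98 closest to the basal well had 277 CPM.

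Transcription factors of the epithelial barrier did not share 1 pattern. Grhl3, a grainyhead-like factor of the embryonic epidermis, had 54.3, 0.0183 and 1.39 CPM in that order, and the suprabasal and periderm markers that include it had 255, 951 and 125.2 CPM summed. Of the 951 in the basal gate, Krt17 gave 938, and Krt1 and Krtdap were at 0 there. Elf5, of secretory luminal cells, had 6.88, 0.0183 and 82.1 CPM and Elf3 4.69, 13.1 and 166. Klf5 had 59.3, 35.4 and 199 CPM, Ovol1 49.45, 4.25 (1.69 in the 98 cells closest to the basal well) and 41.8, and the splicing factor Esrp1 241, 70.5 and 125.4. Of the 5 E-box repressors, 4 had their lowest sum in luminal cells, where Snai2 had 0.834 CPM, Zeb1 0.995, Zeb2 0.337 and Twist1 0. Snai1 had 4.13, 0.275 and 4.05 CPM in the embryonic, basal and luminal gates. Snai2 had 153 CPM in basal and 42.8 in embryonic cells, and Twist1 0.055 and 39.8. The 3 basal reads of Twist1 are no more than a count of 0 allows, so basal and luminal Twist1 cannot be told apart. Of the basal Zeb1 reads, 75.3% came from 1 cell. Without the 22 cells with fibroblast markers, embryonic Twist1 stood at 6.18 CPM, Zeb1 at 0.834 in place of 18.2, which is below its luminal level, and Snai1 at 1.70. Of the embryonic Zeb2 reads, 83.3% came from the 22 cells with fibroblast markers, and of the basal ones 63.1% from the 8 cells closest to the luminal well, 1 of which had any.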

How the data were processed

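One table with read counts for 49585 genes and 92 spike-ins in 384 wells was deposited. HTSeq 0.6.0, cutadapt 1.13 and STAR 2.5.2b, on GRCm38, are listed in the submitters' processing notes, as the tools of the authors. The options, annotation and strand mode were not given in the sources used here. Positions and symbols were taken from GENCODE M21, in which 49326 identifiers were found (5577 only after the version was dropped). No doublet caller was run, and no 2 wells held identical counts. A well titled luminal but labelled with the embryonic sort entered no comparison.

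Reads were summed over kept cells of a gate and scaled to CPM of gene reads without spike-ins. Folds are CPM ratios with exact conditional intervals, and log2 ratios use a prior of 1 CPM. Shares use cells thinned to 50000 reads, with exact Clopper-Pearson intervals, and the limit for a share of 0 is 3 counts of the total. Cells were matched to the wells of 50 cells by Spearman correlation over the 10315 genes that reached 10 CPM in at least 1 of these wells. The ratios and the 2-fold rule were tested on simulated gate sums with counting error and known changes. These sums held no variation between cells and no mixed cells, so the test checks the calculation only. Python 3.11.15, numpy 2.4.6, scipy 1.17.1, pandas 2.3.3, R 4.3.3 and edgeR 4.0.16 (TMM factors only) were used.

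The 10 genes, the other lists and the alternatives were chosen with earlier results of these data known. All 10 genes are named. Other junction genes are named among the 4 highest of their class or where 2 gates differ at least 8-fold at 20 CPM or more, and the like genes are the 3 with the highest correlation for each gene with a read in at least 20% of cells. Some genes that this rule names are not reported here. Comparison of protein sequences was not run. Alternatives were other totals and scalings, thinning, other cell filters, no minimum level, another prior, the wells of 50 cells, shared plate rows, and leaving out the deepest cell or cells in doubt.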

Additional observations from a re-analysis of the deposited data

Results flagged for a closer look

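A well titled luminal but labelled with the embryonic sort entered no comparison and had 774060 reads on genes. Cldn3 stood at 1915 CPM in it, F11r at 635.6, Cldn7 at 217.0, Cldn4 at 165.4, Tjp1 at 156.3, Cldn1 at 69.76 and Tjp3 at 16.79, where the wells without a cell held at most 1 read of any of the 10 genes. Cldn8, Cldn10 and Ocln had 0 reads in it. The same well had 15940 CPM of Csn3, 4095 of Krt18 and 1.29 of Prlr.

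Of the 4 wells without a cell, 1 had 1 read of Cldn4 and the others 0, which sets it apart by the gap to the rest of the range. A single read must set 1 well apart in this way, and 1 read is under the limit that a count of 0 allows.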

How the results depend on the processing

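Each ratio of the 10 genes was recomputed under 17 alternatives, 2 of which (leaving out cells with endothelial markers, and all cells in doubt together) were chosen after seeing the data. The direction held in 169 of 170 values embryonic against luminal and 168 of 170 basal against luminal, but in 147 of 170 embryonic against basal. Part of these values held by construction. Dropping the minimum level leaves each ratio as it was, and another prior cannot change its direction. The fibroblast filter removed no cell basal against luminal, and the endothelial filter none embryonic against luminal. Without cells that match another gate's well, the embryonic against basal count went from 3 to 6 higher and from 4 to 1 lower, and Cldn3 (1.12) and Cldn4 (7.02) turned. Without all cells in doubt the counts were again 6 and 1, with Cldn3 at 1.115 and Cldn4 at 7.21. With spike-in reads as the total, which shifted all genes by 1.34, 5 were higher and 1 lower, Cldn4 (0.245) and F11r (0.13) turned, and other junction genes were 31 higher and 5 lower, in place of 17 and 11. The same scaling gave 35 other genes lower basal against luminal, in place of 21 (shift -0.83, and 0.51 embryonic against luminal). TMM shifted all genes by -0.32, -0.47 and -0.15 in the 3 comparisons, median-of-ratios by -0.37, -0.52 and -0.145. Embryonic against basal they gave 10 and 9 other genes higher, and a prior of 5 CPM gave 11. The mean of per-cell CPM and thinned cells each gave 2 of the 10 genes lower embryonic against basal, Cldn10 and Tjp1, of which Tjp1 was under 2-fold in the summed reads. In the wells of 50 cells 1 was higher, F11r was at 0.421, 17 other genes were lower, and Tjp3 was at 0.552 embryonic against luminal. In shared plate rows 1 of the 10 was higher embryonic against basal, where Cldn8 was at 0.0 with no read in either gate, 11 other genes were higher, and 6 of the 10 were lower embryonic against luminal. Apart from the cells left out and the few cells in shared rows, the cause of these changes was not tested. With 1 sample per gate, variation between animals is not measured, and at 50000 reads a gene under 100 CPM is often missed.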
